A study of Mus musculus with 12 samples.

Results

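The sites described here are 1861 positions in the genome of the mouse forelimb bud at which β-catenin was bound away from promoters and inside chromatin marked by acetylation of histone H3 at lysine 27 (H3K27ac). They were chosen from the consensus list of β-catenin summits of control buds on chromosomes 1 to 19 and X, as the summits that lay 1 kb or more from every annotated transcriptional start site (TSS) and inside an H3K27ac peak of the same control condition. They were 1861 of 13555 distal summits (13.7%) and of 16189 summits in all on these chromosomes (11.5%). They are called marked distal summits below, and the other 11694 distal summits, which lay outside H3K27ac peaks, are called unmarked. The choice used the calls of both antibodies in the control condition, so that the control β-catenin and H3K27ac values of these sites are given as a description. Wild-type Swiss Albino embryos were exposed at E10.5 to C59 or to the vehicle DMSO (control), and forelimb buds were collected 6 h later. C59 inhibits porcupine, the enzyme that WNT ligands need for secretion. β-Catenin and H3K27ac were mapped by chromatin immunoprecipitation sequencing (ChIP-seq), with 2 replicates for each antibody and treatment and pooled buds in each library. C59 acts on every WNT-secreting cell it reaches, and whole buds hold mesenchyme, ectoderm, vessels, blood and migrating muscle precursors.

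Canonical WNT signals stabilise β-catenin, which enters the nucleus and binds DNA through partners, mainly the TCF and LEF1 factors. H3K27ac is found on active promoters and enhancers, and distal regions that carry it are commonly taken as candidate enhancers. In limb buds, WNT ligands from the ectoderm and mesenchyme keep the mesenchyme proliferating and undifferentiated, and they act together with FGFs of the apical ectodermal ridge, with BMPs and with SHH.

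The following stretches of 121 bases (GRCm38, RefSeq sequence, plus strand) surround the core at the strongest marked distal summit with a TCF/LEF core near genes of each pathway, as a view of the DNA these results turn on. Capitals mark the core, ATCAAAG or TTCAAAG, which reads CTTTGAT or CTTTGAA where it lies on the minus strand. The first is, after the site nearest to Psd2 described below, the strongest of all marked distal summits with a core, in an intergenic region 17815 bp from the TSS of Piwil1, and its core was centred 22 bp from the summit.
Piwil1, chr5:128684671-128684791: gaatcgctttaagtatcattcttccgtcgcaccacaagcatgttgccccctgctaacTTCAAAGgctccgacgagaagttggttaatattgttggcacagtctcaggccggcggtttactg
The next lies 67107 bp from the TSS of Nkd1, a feedback inhibitor of WNT signaling, with its core 7 bp from the summit in a stretch rich in G and C.
Nkd1, chr8:88454180-88454300: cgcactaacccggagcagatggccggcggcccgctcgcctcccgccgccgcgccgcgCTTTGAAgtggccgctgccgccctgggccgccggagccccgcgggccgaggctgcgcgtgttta
The site nearest to an inhibitor of BMP signal transduction is in an intron of Smad6, with its core 63 bp from the summit, which lies just outside the printed stretch.
Smad6, chr9:63980572-63980692: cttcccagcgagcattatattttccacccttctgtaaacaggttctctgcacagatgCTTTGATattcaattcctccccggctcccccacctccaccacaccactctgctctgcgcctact
The site for the FGF pathway lies 96578 bp from the TSS of Dusp6, a phosphatase that limits ERK activity, in a gene that is not protein-coding.
Dusp6, chr10:99359788-99359908: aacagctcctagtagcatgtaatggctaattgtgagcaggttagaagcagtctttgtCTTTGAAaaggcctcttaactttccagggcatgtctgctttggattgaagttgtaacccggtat
The hedgehog pathway is represented by a site in an intron of Gli2, a transcriptional effector of SHH, with its core 9 bp from the summit.
Gli2, chr1:118904953-118905073: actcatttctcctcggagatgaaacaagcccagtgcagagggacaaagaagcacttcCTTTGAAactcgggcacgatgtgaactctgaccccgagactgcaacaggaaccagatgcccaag
Among limb mesenchyme transcription factors, the site is 1067 bp from the TSS of Twist2, a bHLH factor of undifferentiated mesenchyme.
Twist2, chr1:91800329-91800449: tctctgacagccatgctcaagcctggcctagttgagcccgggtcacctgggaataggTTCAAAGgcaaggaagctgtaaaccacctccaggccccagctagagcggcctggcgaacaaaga
Among chondrogenesis genes, it lies in an intergenic region 181702 bp from the TSS of Sulf1, a heparan sulfate editing enzyme.
Sulf1, chr1:12510490-12510610: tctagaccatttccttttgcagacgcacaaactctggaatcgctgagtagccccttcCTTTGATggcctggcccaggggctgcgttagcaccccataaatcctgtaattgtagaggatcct
The last lies in an element with limb activity in transgenic embryos, mm717, near Tanc1, and was chosen after its values were seen.
Tanc1, chr2:59599878-59599998: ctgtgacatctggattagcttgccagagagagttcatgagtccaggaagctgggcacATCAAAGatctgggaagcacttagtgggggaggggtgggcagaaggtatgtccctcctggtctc
Each of these 8 stretches holds 1 core, on the plus strand at Piwil1, Twist2 and Tanc1 and on the minus strand at the other 5.

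The libraries were of similar depth within each antibody. As estimated from the expected coverage of the peak caller, β-catenin libraries ranged from 2.93 to 3.42 Gb of sequenced fragments and H3K27ac libraries from 5.03 to 5.93 Gb. The β-catenin lists held 20148 and 25765 summits in controls against 283 and 315 after C59. The H3K27ac lists held 35206 and 37869 summits in controls and 37169 and 33120 after C59. The tissue label was read against H3K27ac within 1 kb of TSSs: Tbx5 and Prrx1, which define forelimb and limb mesenchyme, were marked, as were all 40 limb mesenchyme transcription factors listed. The TSSs of the hindlimb genes Pitx1 and Isl1, of Myod1 (muscle), Kdr (endothelium), Gata1 (blood) and Sox10 (Schwann cells) were not marked, whereas those of the hindlimb gene Tbx4 and the epithelial gene Epcam were.

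Marked distal summits lay in 1587 H3K27ac regions, of which 1345 held 1 and 242 held 2 or more, up to 4. Seen from H3K27ac, 1519 of 6922 distal regions (21.9%, 95% Wilson interval 20.99 to 22.9%) held such a summit. Introns of protein-coding genes held 740 of the sites (39.8%), exons 45 (2.42%), other genes 142 (7.63%) and intergenic DNA 934 (50.2%). Unmarked summits were spread over the same classes at 40.4, 1.48, 7.30 and 50.8%. The marked sites lay nearer to TSSs, with a median distance of 15935 bp (quartiles 6849 and 33203 bp) against 22055 bp (8538 and 51895 bp) for unmarked ones. The DNA around them was richer in G and C, with a median of 50% over 200 bp (quartiles 45 and 56%) against 43.5% (39.5 and 48%), while β-catenin summits at marked promoters had 64.5%.

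Sites at the limits of the choice are given as a description. The marked site nearest to a TSS, by Rai1, lay at 1000 bp with a β-catenin fold enrichment of 4.88, and the farthest marked promoter summit, by Gxylt2, lay at 999 bp with 4.06. Fold enrichment is the coverage at a summit over the coverage that the peak caller expected there. At the H3K27ac edge, a site by Tcf12 lay on the last base inside a peak with a fold of 6.83, and a summit by Nyap2 lay 1 bp outside with 6.38. Within 50 bp of an edge, 160 marked sites lay inside and 241 unmarked summits outside. Most unmarked summits were far from H3K27ac, with a median gap of 47968 bp, and 1442 of them (12.3%) lay within 1 kb of a peak.

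Inside the peaks, β-catenin summits were displaced from the H3K27ac summits. The median distance to the nearest H3K27ac summit of the same region was 161 bp (quartiles 88 and 230 bp), while over all bases of the same regions it was 132 bp (64 and 233 bp). Distances below 50 bp were found at 249 sites (13.4%, 11.9 to 15.0%), where 19.4% of the bases lay. Distances from 150 to 200 bp were found at 352 sites (18.9%, 17.2 to 20.8%), where 13.0% of the bases lay, and from 200 to 250 bp the shares were 15.6 and 9.13%. Sites with and without a TCF/LEF core had medians of 154.5 and 163 bp. These figures are a description over sites, without a test.

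**Figure D1:**
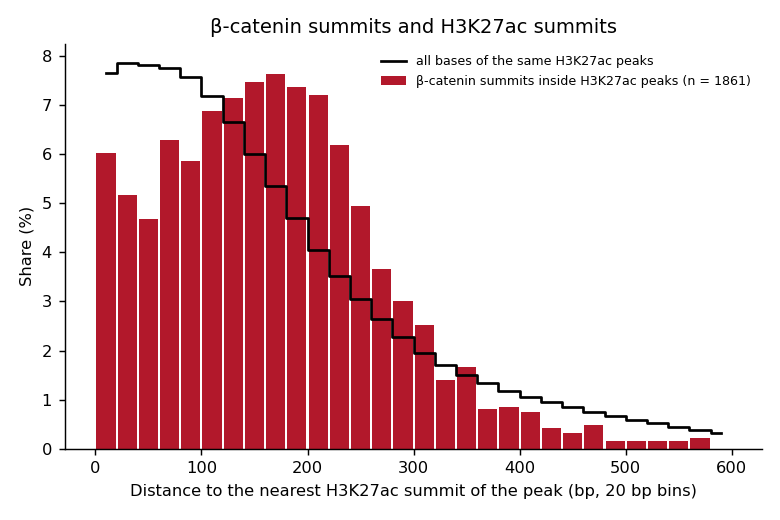
Distance from each of the 1861 marked distal β-catenin summits to the nearest H3K27ac summit of its region (x axis, bp) as a percent of sites (y axis), against all bases of the same regions. The sites are fewer than the bases close to the H3K27ac summit and more frequent between 150 and 250 bp.

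In controls, β-catenin enrichment of marked and unmarked distal summits covered the same range. The median fold in the consensus list was 6.76 (quartiles 5.17 and 9.26, range 1.79 to 43.6) at marked sites and 7.07 (5.57 and 9.60, range 2.28 to 39.8) at unmarked ones, and β-catenin summits at marked promoters had 5.11. In the replicate lists the medians were 6.16 and 6.45 at marked sites and 6.23 and 6.40 at unmarked ones, so that the order was opposite in the second replicate. Across the 1861 sites, fold enrichments of the replicates were related with a Spearman's rho of 0.76, over sites and not over samples. The rho between the β-catenin fold of a site and the H3K27ac fold of its region was 0.019. Strong β-catenin sites thus lay in strong and weak H3K27ac regions alike.

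A TCF/LEF core was present within 200 bp windows of 402 of the 1861 marked distal summits (21.6%, 19.8 to 23.5%), where 28.6% of all β-catenin summits of control buds had one. Unmarked distal summits had a core in 3689 of 11694 windows (31.5%), a difference of -9.94 percentage points (marked minus unmarked, Newcombe interval -11.9 to -7.84, two-sided Fisher's exact test, adjusted p = 5.46e-18 over 18 motifs). Windows 2 kb to either side of the marked sites held a core in 269 of 3722 cases (7.23%), so that cores were more frequent at the sites than beside them (Fisher's exact test, adjusted p = 2.43e-50). Sites are not replicates, and these tests describe the windows. Of the 443 cores in windows of marked sites, 75.6% were centred within 50 bp of the summit. A second core was found in 2.04% of marked and 4.41% of unmarked windows. The share with a core rose with β-catenin enrichment, from 13.3% in the lowest of 4 fold classes through 16.5 and 25.3% to 34.0% in the highest, and in each class unmarked summits had more (24.7, 29.0, 31.8 and 40.4%). It was also lower at marked sites within each GC class, with 24.5, 23.2 and 20.5% from the lowest to the highest class against 32.3, 30.6 and 31.9%.

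**Figure D2:**
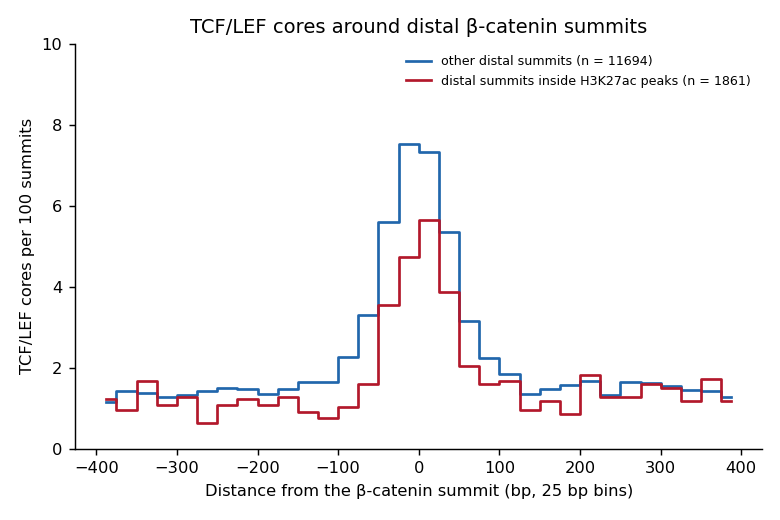
Number of TCF/LEF cores (ATCAAAG or TTCAAAG, either strand) per 100 summits (y axis) in 25 bp bins of distance from the β-catenin summit (x axis), for 1861 marked and 11694 unmarked distal summits. Both lines peak at the summit, and the line of the marked sites is lower within 100 bp of it in nearly all bins and near the other line farther out.

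Words of other transcription factors divided the 2 classes of sites. Of the 18 words searched, 6 were more frequent at marked than at unmarked distal summits, 8 were less frequent and 4 did not pass (Fisher's exact tests, Benjamini-Hochberg adjusted). The word GGGCGG, bound by SP and KLF factors, was at 13.8% of marked and 4.09% of unmarked sites (adjusted p = 4.49e-50, Fisher's exact test). TFAP2 words (GCCNNNGGC) were at 10.4 and 6.02%, the SMAD1 and SMAD5 word GGCGCC at 4.51 and 1.40%, the ETS word CCGGAAG at 2.42 and 0.804%, the TEAD word CATTCC at 15.7 and 13.8%, and the E-box CAGCTG of bHLH factors at 23.6 and 18.9%. Words of several developmental factors were less frequent at marked sites. The homeodomain word TAATTA was at 10.2 against 17.6%, the posterior HOX word CATAAA at 18.6 against 27.1%, the MEIS and TGIF word TGACAG at 13.3 against 20.9% and the PBX word TGATTGA at 2.36 against 4.69%. AP-1 (TGANTCA, 4.25 against 6.26%), SOX (ACAATG, 7.15 against 9.06%) and T-box words (AGGTGTGA, 0.591 against 1.39%) were less frequent as well. The E-box CATCTG (31.2 against 30.2%), the GLI word TGGGTGG (4.89 against 3.89%), the SMAD3 and SMAD4 word GTCTAG (4.46 against 4.34%) and AAACAG (24.6 against 26.0%) did not pass. GC content differed between the classes as given above, and its part in these shares, other than that of the TCF/LEF core, was not tested. Against windows 2 kb away, 11 words were more frequent at the marked sites and 3, those of SOX, AP-1 and SMAD3 and SMAD4, were less frequent. All words were read on both strands, and the SP and KLF word, the GGCGCC word and the TFAP2 word can overlap in runs of G and C.

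**Figure D3:**
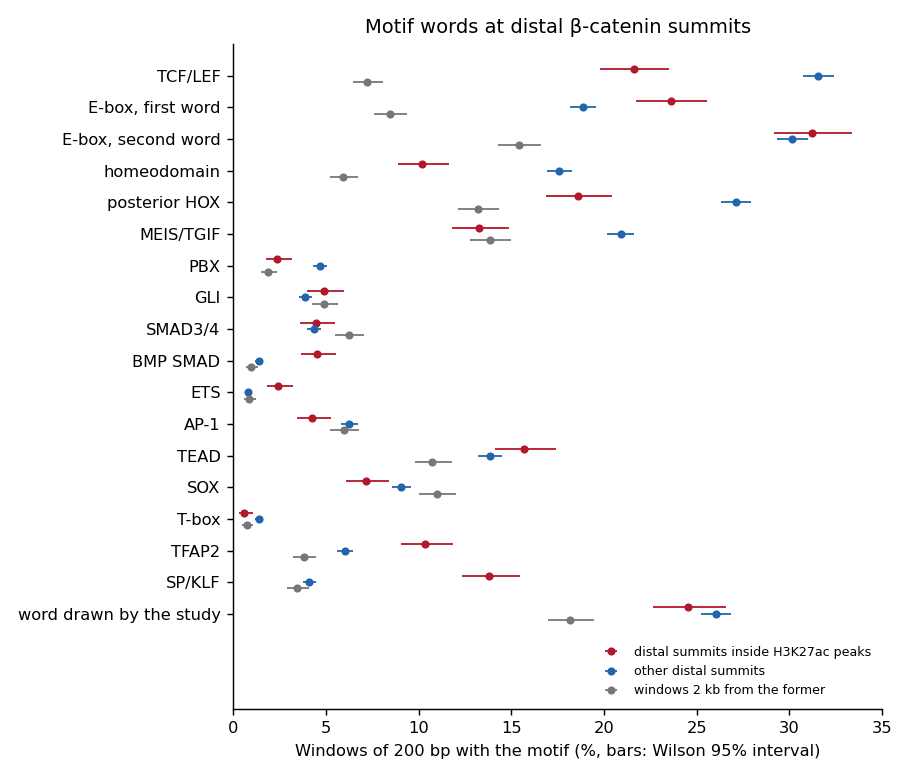
Percent of 200 bp windows that hold each of 18 motif words (x axis), with 95% Wilson intervals as bars, for marked distal summits (red), unmarked distal summits (blue) and windows 2 kb from the marked ones (grey). The first and second E-box words are CAGCTG and CATCTG, and the last row is AAACAG. The TCF/LEF core is less frequent at marked than at unmarked summits and far above the grey windows, and the SP/KLF word is more frequent at marked summits than in both other sets.

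After C59, β-catenin peaks were absent from nearly all marked distal summits. A peak of the C59 consensus list covered 43 of 1861 sites (2.31%, 1.72 to 3.10%), against 1.12% of all control β-catenin summits and 86 of 11694 unmarked distal ones (0.735%). The difference between marked and unmarked sites was 1.58 percentage points (0.960 to 2.37 points, two-sided Fisher's exact test, p = 1.5e-08), and the C59 replicate lists gave 59 (3.17%) and 64 sites (3.44%) against 1.20 and 1.46%. Of the 43 sites, 34 lay in peaks of all 8 replicate lists, of both antibodies and treatments. When summits in all 8 lists were left out, the difference was -0.243 points. This removal takes out sites because they lay in C59 β-catenin peaks and in H3K27ac peaks, and so takes marked sites by its construction. It therefore cannot test the difference. The 43 sites formed 31 loci at 10 kb, had a median control fold of 11.0, and 1 of them (2.33%) had a TCF/LEF core, against 22.1% of the other 1818 sites. Fisher's exact test counted sites singly, although sites of the same locus are not independent, so it describes the sites. The study's removal of blacklisted summits was not repeated here, and the part of such summits in the difference was not tested.

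The strongest sites showed both kinds of behaviour. The site with the highest fold, in an exon of Lars2 and nearest to the TSS of Limd1, had β-catenin folds of 40.9 and 41.0 in controls and 27.1 and 30.9 after C59, and H3K27ac folds of 9.21, 10.8, 11.97 and 8.75 in the control and C59 libraries. The site near Rpusd4 had 40.5 and 42.4 in controls and 42.9 and 44.1 after C59, with H3K27ac folds from 35.1 to 37.6, and sites in an intron of Chl1 and near Gm8797 were likewise enriched in all 8 lists. At these 4 sites, high values were found with both antibodies and treatments. The cause was not tested. In contrast, the site in an intron of the agouti gene, nearest to Eif2s2, had 27.7 and 29.5 in controls and no C59 peak. The Piwil1 site printed above had 25.8 in both controls and no C59 peak, with an H3K27ac fold of 4.61 in 1 control library and no H3K27ac peak in the other 3. The site nearest to Psd2, with a core, had 25.9 and 28.4 in controls and no C59 peak, while its H3K27ac folds were 5.73 and 5.24 in controls and 6.54 and 6.19 after C59. A site in an intron of Scube1, which encodes a secreted and membrane-bound EGF-like protein, fell between these, with 24.1 and 27.9 in controls and 7.07 and 7.36 after C59. Sites nearest to Fgd2 (24.0 and 26.8 in controls) and in an intron of Dysf (25.1 and 26.5) each had a peak in 1 C59 replicate alone, with 5.58 and 5.53, and had no core. Of the 10 strongest sites, 5 lay in a C59 consensus peak and 2 had a core. Of the 32 sites with a fold of 20 or more, 11 lay in such a peak and 10 had a core.

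H3K27ac remained called at most of the sites after C59. Of the 1861 sites, 1478 (79.4%, 77.5 to 81.2%) lay inside an H3K27ac peak of the C59 consensus list, where 89.1% of all control H3K27ac summits did. The latter share is over H3K27ac summits of promoters and distal regions alike, not over β-catenin summits, so the 2 shares differ in measure. In the replicate lists, the sites were inside H3K27ac peaks in 1395 (74.96%) and 1442 cases (77.5%) in controls and in 1359 (73.0%) and 1234 cases (66.3%) after C59. All 4 replicate lists covered 929 sites, 3 lists 307, 2 lists 279, 1 list 235 and no list 111, although all of them lay in a region of the jointly called control list. At the 929 sites the median H3K27ac fold was 5.01 and 5.03 in controls and 5.39 and 5.17 after C59, a median log2 difference of 0.055 (C59 minus control) beside differences of 0.025 and -0.062 between replicates of a treatment. The choice of the sites used the control call, so a lower count after C59 is not a test of loss. In pooled buds, fewer cells with the mark and less of the mark per cell cannot be told apart.

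A comparison that treats the conditions alike used all 13555 distal β-catenin summits of control buds and the 4 H3K27ac libraries. H3K27ac peaks covered 11.2 and 12.2% of them in controls and 13.4 and 11.2% after C59, with overlapping groups and a mean difference of 0.561 points (two-sided exact permutation test over 4 libraries, p = 1). With 2 libraries a group, p cannot go below 0.333. For summits with a core the shares were 8.29 and 9.02% in controls and 9.44 and 7.14% after C59. For summits without a core they were 12.5 and 13.6% in controls and 15.1 and 13.0% after C59.

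**Figure D4:**
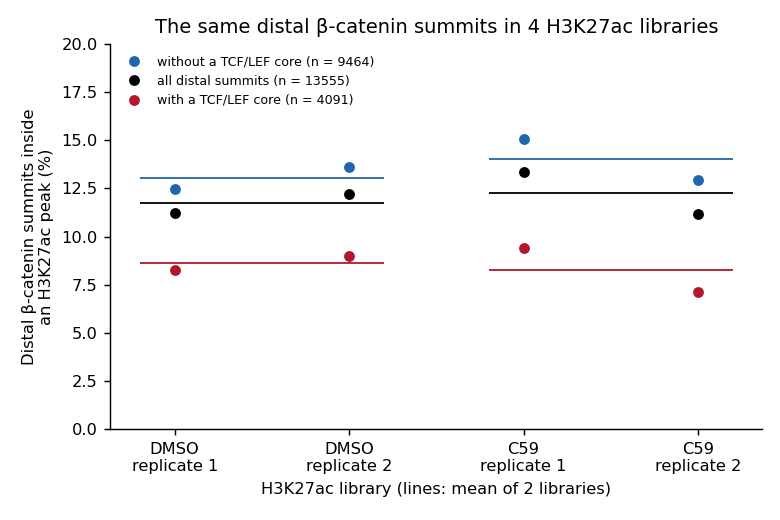
Percent of distal β-catenin summits of control buds that lie inside an H3K27ac peak (y axis) in each of the 4 H3K27ac libraries (2 DMSO, 2 C59), for all 13555 summits, the 4091 with a TCF/LEF core and the 9464 without, with lines at the mean of 2 libraries. The points of the treatments overlap in each class.

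Distal H3K27ac regions that held a β-catenin summit were called again after C59 more often than those without β-catenin. Of the 1519 distal regions with a marked summit, 1293 (85.1%, 83.2 to 86.8%) overlapped an H3K27ac region of the C59 consensus list, where 87.1% of all control regions did. Of 5403 distal regions with no β-catenin summit, 3799 (70.3%, 69.1 to 71.5%) did so. The difference was 14.8 points (12.6 to 16.9 points, two-sided Fisher's exact test, p = 1.47e-33). Regions with β-catenin were wider, with a median of 948 against 556 bp, and had a higher H3K27ac fold, with a median of 5.20 against 4.46. Within 4 classes of H3K27ac fold, the shares were 64.1 against 51.3%, 72.8 against 62.4%, 87.3 against 78.5% and 98.5 against 95.1% (Fisher's exact test, p from 0.000781 to 3.73e-05), so that the difference was smallest in the strongest regions. With the strongest summit of a region inside a C59 region as the measure, the shares were 84.5 and 69.8%. A wider region can overlap a C59 region more easily, and the part of region width was not tested. Regions are not replicates, so these tests describe the regions and do not test a response to C59.

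Sites with a TCF/LEF core lay in a C59 H3K27ac peak less often than sites without. This was the case for 292 of 402 sites with a core (72.6%) and 1186 of 1459 without (81.3%), a difference of -8.65 points (-13.6 to -4.03 points, two-sided Fisher's exact test, p = 0.000215, adjusted p = 0.00386 over 18 motifs). The C59 replicate lists gave 67.9 against 74.4% (Fisher's exact test, p = 0.0110) and 58.5 against 68.5% (p = 0.000216). No other word of the 18 passed, the nearest being the posterior HOX word CATAAA with 74.0 against 80.7% (Fisher's exact test, adjusted p = 0.0578). Within 4 classes of H3K27ac fold the difference was between -14.4 and -0.987 points, and only class 2, counted from the lowest, passed (Fisher's exact test, p = 0.00343). The sites were chosen by the control H3K27ac call and are not replicates, so these tests describe the sites and do not test a response to C59. Among all distal summits, those with a core were covered less often in the control libraries as well (8.29 and 9.02%, against 12.5 and 13.6% without). A counterpart that treats both conditions alike, given without a test over summits, is the set of distal β-catenin summits inside H3K27ac of 1 condition. Of 383 summits inside H3K27ac peaks of controls alone, 28.7% had a core, against 19.9% of 513 summits inside peaks of C59 alone. The 1478 summits inside peaks of both had 19.8% and the 11181 inside neither 32.1%. Between single libraries of different treatment, the same difference was 6.37, 10.8, 5.22 and 9.62 points, while it was 1.48 points between the controls and 5.11 points between the C59 libraries, which is close to the lowest value between treatments. Over the 4 libraries, the share with a core among covered summits was 22.29 and 22.26% in controls and 21.3 and 19.2% after C59 (exact permutation test, p = 0.333, the smallest possible).

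**Figure D5:**
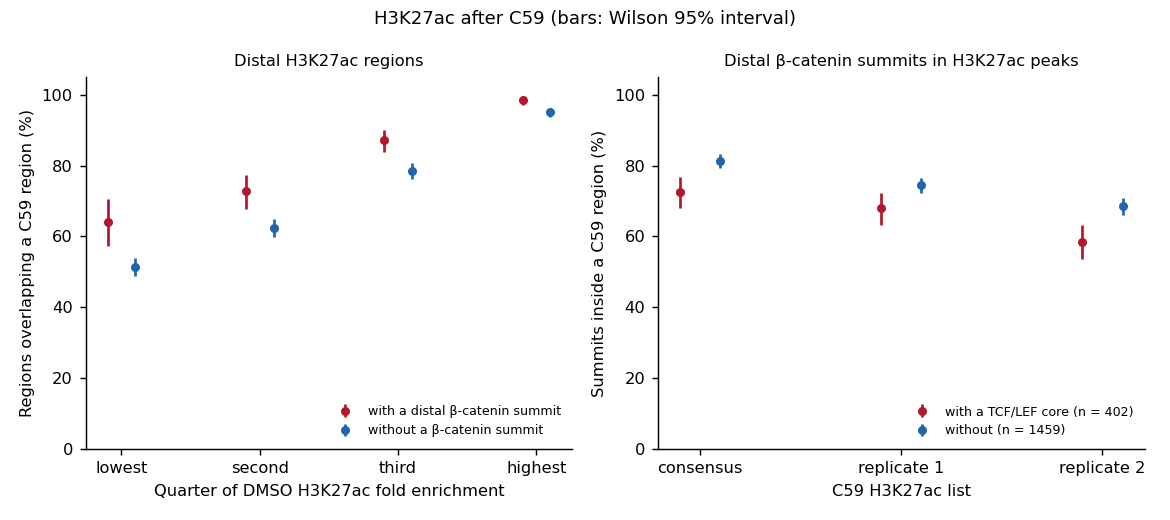
Left, percent of distal control H3K27ac regions that overlap a C59 region (y axis) by class of their H3K27ac fold (x axis), with or without a β-catenin summit. Right, percent of marked distal summits inside a C59 H3K27ac region (y axis) in the consensus and replicate lists (x axis), with or without a TCF/LEF core. Bars are 95% Wilson intervals, and red points lie above blue points in each class on the left and below them in each list on the right.

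Marked distal summits were next assigned to the protein-coding gene with the nearest TSS, which does not say which gene a site acts on. They were nearest to 1171 of 21646 genes (5.41%), with 1 site for 762 genes, 2 for 263 and 3 or more for 146. Of 36 genes of the WNT pathway, 16 (44.4%) were nearest to 26 sites. Of the distal summits nearest to WNT genes, 18.3% were marked, against 13.7% of all distal summits. Nkd1 had 3 marked sites and all 3 had a core. The printed Nkd1 site had β-catenin folds of 18.4 and 18.5 in controls and no C59 peak, while H3K27ac had 11.8 and 11.2 in controls and 15.8 and 16.3 after C59. The Nkd1 sites at 88570789 and 88604157 of chromosome 8 also lost the β-catenin call and kept the H3K27ac call in both C59 libraries. Axin2, which encodes a scaffold of the β-catenin destruction complex and is a common readout of canonical WNT activity, had 3 sites that differed from each other. That at 108961787 on chromosome 11 had 2 cores and β-catenin folds of 15.1 and 15.6 in controls, and no β-catenin peak after C59. Its H3K27ac call was that of the control consensus list alone, as no replicate list of either treatment had an H3K27ac peak there. That at 109011889, 88708 bp from the Axin2 TSS, had no core, and its β-catenin folds were 18.5 and 19.1 in controls and 21.5 and 19.99 after C59. Its H3K27ac folds were 8.82 and 8.38 in controls and 9.83 and 9.57 after C59, so that it lay in peaks of all 8 replicate lists. The cause was not tested. The site at 108948034, in an Axin2 intron, lost the β-catenin call and had H3K27ac folds of 5.13 and 6.14 in controls and 6.77 and 7.57 after C59. Tcf7l2, a TCF factor gene, had 3 sites with no core, and none lay in a C59 consensus peak of either antibody. The strongest had β-catenin folds of 13.9 and 13.1 in controls and a peak in 1 C59 replicate alone, with 5.34. Each of the 3 sites had an H3K27ac peak in 1 control library alone and in neither C59 library. The absent C59 call at these sites is therefore not a test of loss. Fzd1, a WNT receptor gene, had a site with a core in an intron of Cdk14, with 12.8 and 14.0 in controls and no C59 peak of β-catenin. TSSs of 26 of the 36 WNT genes had H3K27ac within 1 kb in controls and 21 after C59, where those of 11445 and 11219 of all 21646 protein-coding genes did. In the lists described below, the counts were 19 and 15 for BMP, 15 and 14 for FGF and 9 and 8 for chondrogenesis genes. They were equal for hedgehog, limb transcription factor, cell cycle, ectoderm, muscle and neural genes. They rose for endothelial and blood (4 and 6) and hindlimb genes (1 and 2).

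In the BMP pathway, 8 of 22 genes were nearest to 15 sites, and these genes encode modulators or targets of BMP signaling. Smad6, an inhibitory Smad, had 4 sites, all without a C59 β-catenin peak and all inside H3K27ac of the C59 consensus list. The strongest, at 63960110 of chromosome 9, had β-catenin folds of 7.70 and 12.4 in controls and H3K27ac folds of 3.90 and 4.89 in controls and 4.33 and 4.82 after C59. The printed Smad6 site had β-catenin folds of 7.47 and 9.75 in controls. Id2, a target of BMP signals, had sites at 1599 and 436925 bp from its TSS with control folds of 9.40 and 9.51 and of 13.1 and 11.3. Msx2, a homeobox gene of BMP-responsive mesenchyme and ectoderm, had a site with 10.4 and 11.3 and Smad7, the other inhibitory Smad, one with 6.82 and 8.40. Bmp2, Bmp4, Bmp7 and Grem1 were nearest to no marked site, while 13, 3, 4 and 6 unmarked distal summits were nearest to them. For the whole list, 15.3% of nearest distal summits were marked, beside 13.7% of all distal summits.

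In the FGF pathway, 5 of 18 genes were nearest to 11 sites, and all 5 encode antagonists of the pathway. The list held further antagonists, such as Spry1 and Spred1, which were nearest to no marked site. Spry2 had a site 24267 bp from its TSS with β-catenin folds of 16.4 and 14.4 in controls and none after C59, and H3K27ac folds of 7.61 and 7.92 in controls and 9.74 and 8.45 after C59. The printed Dusp6 site had 15.5 and 15.8 in controls and no C59 peak, with an H3K27ac call in 1 library of each treatment (4.84 and 4.64). Both Dusp6 sites had a core. Spry4 had sites with 8.97 and 10.51 and with 8.07 and 8.19 in controls, Dusp4 had 2 sites and Spred2 had 2. All 11 sites lay inside H3K27ac of the C59 consensus list, where 79.4% of all marked sites did. Of the distal summits nearest to these genes, 16.4% were marked, beside 13.7% of all distal summits.

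In the hedgehog pathway, 5 of 13 genes were nearest to 10 sites. The printed Gli2 site had β-catenin folds of 15.1 and 14.1 in controls and no C59 peak, and its H3K27ac folds were low in all libraries, with 2.80 and 3.70 in controls and 3.78 and 3.22 after C59. Gas1, a SHH co-receptor gene, had 4 sites. That at 60110632 of chromosome 13 had a core, and its H3K27ac folds of 10.9 and 9.97 in controls were followed by no H3K27ac peak in either C59 library. That at 60147387 had H3K27ac folds of 3.16 and 2.52 in controls and 7.78 and 6.50 after C59. These are values of the H3K27ac summit nearest to the site, and the strongest summit of the same control consensus region had 6.89, near the C59 values. Boc, another co-receptor gene, had a site with β-catenin folds of 8.85 and 11.0, and Gli3 had 2 sites with folds between 3.91 and 6.23 in the control libraries. In this list 16.1% of distal summits were marked, beside 13.7% of all distal summits.

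Limb mesenchyme transcription factors had many distal β-catenin summits and few marked ones. Of 40 genes, 6 were nearest to 17 marked sites, and 207 unmarked distal summits were nearest to genes of the list. Thus 7.59% of the distal summits nearest to these genes were marked, beside 13.7% of all distal summits. Twist2 had 5 sites. The printed one had folds of 12.5 and 14.6 in controls, and one in a Twist2 intron had 11.7 and 13.2. Prrx2, a homeobox gene of limb mesenchyme, had 3 sites, the strongest with 10.1 and 13.5, and Lmx1b, which sets dorsal identity, had 3 with folds of at most 8.89 in the replicate lists. Tbx15, Sall1 and Irx5 had 2 sites each. Among these 17 sites 1 had a core and 14 lay inside H3K27ac of the C59 consensus list. Over all marked sites, the shares were 21.6 and 79.4%.

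Chondrogenesis genes were nearest to 11 sites, for 7 of 16 genes. Of their distal summits 12.1% were marked, beside 13.7% of all distal summits. Sox5, a cartilage SOX gene, had an intronic site with β-catenin folds of 17.8 and 18.9 in controls and no C59 peak, while H3K27ac had 5.29 and 6.40 in controls and 5.49 and 7.03 after C59. Sox6 had intronic sites with 12.7 and 11.4 and with 15.2 and 14.9. The printed Sulf1 site had 10.8 and 13.5, and both Sulf1 sites had a core. Sox9, the master gene of chondrogenesis, had sites at 194925 and 232240 bp from its TSS with lower control folds, 5.31 and 4.92 and then 6.04 and 6.66. Among the replicate lists, the former had an H3K27ac peak in a single control library, with 3.84. The latter had one in a single C59 library, with 3.35. All 11 sites lay inside H3K27ac of the C59 consensus list, where 79.4% of all marked sites did. Cell cycle genes were nearest to 8 sites for 5 of 11 genes, with 21.1% of distal summits marked, and the strongest was a site near Mycn with a core and folds of 16.0 and 12.1.

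Lists of genes of other cell types were short, so their counts of sites were small, and the count was highest for vessel and blood genes. Endothelial and blood markers had 15 marked sites for 5 of 15 genes. Of their distal summits 34.1% were marked, beside 13.7% of all distal summits. Cdh5, the endothelial cadherin gene, had 5 sites and the strongest, with 2 cores, had control folds of 12.4 and 11.1, yet it lay 287285 bp from the TSS, and no Cdh5 TSS had H3K27ac. Ptprc had 5 at distances up to 400435 bp and Erg, an ETS factor gene of endothelium, had 3 with folds of at most 9.17 in the replicate lists. Of the 15 genes of this list, 4 had H3K27ac at a TSS in controls and 6 after C59, beside the 11445 and 11219 of 21646 genes given above. Ectoderm and apical ridge markers had 4 sites for 3 of 18 genes (Dlx2, En1 and Grhl2), muscle precursor markers 3 sites for 2 of 10 (Pax3 and Lbx1), neural and Schwann cell markers 1 site for 1 of 12 (Neurog1), and hindlimb identity genes 1 site for 1 of 3 (Tbx4). The marked share of their distal summits was 17.4, 14.3, 16.7 and 7.14%, beside 13.7% of all distal summits. Of the genes in these lists, 16.7, 20, 8.33 and 33.3% were nearest to a marked site, beside 5.41% of all protein-coding genes. The part of these cell types in the marked sites was not tested.

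The genes nearest to most sites were Auts2 with 10, and Gse1, 4930558K02Rik and Hes1 with 8 each, followed by Zfp608, Sorl1, Slc4a3 and Lix1 with 7 and Tmem132c and Cdh11 with 6. Casz1, Hdac9 and Arid1b also had 6, with a lower highest fold, and fell outside the 10 genes described. None of their sites lay in a C59 β-catenin consensus peak. Auts2, a chromatin and neurodevelopment gene, had sites from 24034 to 565456 bp from its TSS with folds of at most 8.50 in the consensus list. Of the 10, 6 lay inside H3K27ac after C59, where 79.4% of all marked sites did. Gse1 had 8 intronic sites, 0 with a core, and the strongest had β-catenin folds of 18.2 and 20.8 in controls and H3K27ac folds of 7.05 and 8.64 in controls and 7.15 and 6.19 after C59. Hes1, a bHLH repressor gene of the Notch pathway, had sites from 4783 to 225826 bp away with folds of at most 8.42. Of its 8 sites, 7 lay inside H3K27ac after C59, and the exception was its only site with a core. Lix1, a gene expressed in limb buds, had 7 sites with consensus folds of at most 8.18, of which 4 lay inside H3K27ac after C59. Cdh11, a mesenchymal cadherin gene, had 6 sites, 0 with a core, at 197879 to 528946 bp, the strongest with 11.9 and 13.1 in controls.

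Marked distal summits were also set against elements that VISTA tested in transgenic mouse embryos, as annotated by RefSeq on GRCm38. Of 174 elements with limb activity, 56 (32.2%, 25.7 to 39.4%) held a marked site, against 45 of 446 (10.1%, 7.63 to 13.2%) with activity elsewhere alone, a difference of 22.1 points (14.9 to 29.8 points). Limb elements also overlapped H3K27ac more often. Among elements that did, 56 of 117 limb elements (47.9%, 39.0 to 56.8%) and 45 of 144 others (31.3%, 24.2 to 39.2%) held a marked site, and these intervals overlap slightly. Of the 56 limb elements, 54 (96.4%) still overlapped H3K27ac after C59, 1 (1.79%) overlapped a C59 β-catenin peak and 10 (17.9%) had a marked site with a core. Of all 1861 marked sites, 79.4% lay inside a C59 H3K27ac peak, 2.31% inside a C59 β-catenin peak and 21.6% had a core. Overlap of a whole element is an easier measure than a summit inside a peak, so these shares cannot be compared directly. Element mm717 near Tanc1 (chr2:59597936-59601449), active in limbs of 9 of 9 embryos, held 2 sites with a core. Its printed site had β-catenin folds of 16.4 and 13.6 in controls and 4.10 in 1 C59 library alone, with H3K27ac folds of 5.66 and 5.09 in controls and 3.76 and 5.59 after C59. Element mm1518 holds the strongest Smad6 site given above and was active in limbs of 6 of 8 embryos, mm745 holds the Gas1 site at 60147387 (11 of 12) and mm636 a Sox9 site (6 of 9). Element mm1010 near Maml3, a Notch coactivator gene, was active in 9 of 9 embryos and held a site with a fold of 17.0. The element whose site kept a C59 β-catenin peak was mm87 near Popdc3, with folds of 18.8 and 20.5 in controls and 5.81 and 4.97 after C59, and its site lay in no H3K27ac peak of a single replicate.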

How the data were processed

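Forelimb buds treated with C59 or DMSO at E10.5 and collected after 6 h were used for ChIP-seq with antibodies against β-catenin and H3K27ac. There were 8 libraries with peak lists and 4 input samples, which were not used here. Per the labels and the methods of the study, the authors trimmed reads with cutadapt (the submitters' processing notes give version 4.1), mapped them to mm10 (GRCm38) with Bowtie2 2.4.5, discarded alignments whose mapping quality was below 30 and ran MACS2 2.2.7.1 without input. The 4 consensus lists are joint calls by the authors on replicates freed of duplicates (Picard 2.27.4) and sampled to equal size, restricted to summits found inside peaks of each replicate. Each deposited row is 1 summit with its fold enrichment, a ratio over expected coverage, and with −log10 values for its p-value and for its q-value, all from the authors' peak caller. Strength in a consensus list is therefore the authors' pooled value, with no error of its own. The removal of blacklisted summits described by the study was not repeated.

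TSSs came from all transcripts of GENCODE M21 for mm10, and 0 peaks reached past a chromosome end of GRCm38. Depth was solved from the fold enrichment and p-value of the rows of each of the 8 replicate lists up to a −log10 p of 250, to within 0.01 of the deposited value, with a genome size of 1870000000, and 100% of these rows were solved. This depth sets which peaks can pass, so that a site outside a peak may hold signal below the threshold. The value of a site in a list is the fold enrichment of the nearest summit of the peak region that holds it. Motif words were counted on both strands in windows of 200 bp on the summit and 2 kb to either side.

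Shares carry 95% Wilson intervals, and their differences carry Newcombe intervals, which cover counting error over sites only. They were compared with two-sided Fisher's exact tests at a threshold of 0.05, Benjamini-Hochberg adjusted over 18 motifs where stated. Libraries were compared with an exact permutation test. Named were the 10 strongest sites, up to 4 genes of each list nearest to most sites, the 10 genes nearest to most sites, the 5 strongest sites in C59 β-catenin peaks and sites at the limits of the choice. The sites and gene lists were chosen with earlier results of these data known. The comparison of sites with and without a core after C59, of summits marked in 1 condition, and with VISTA elements was added after the data were seen. Alternatives were other TSS limits and annotations, stricter or wider peaks, other windows, strata of fold and GC content, and leaving out replicates. The functions for region lookup, overlaps, nearest distances, motif search, Newcombe intervals, Fisher's exact tests and depth were tested on simulated data. The other functions were not. The scripts ran in Python 3.11.15 with scipy 1.17.1, pandas 2.3.3, numpy 2.4.6 and pysam 0.24.0, and figures were drawn with matplotlib 3.10.9.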

Additional observations from a re-analysis of the deposited data

How the results depend on the processing

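With H3K27ac peaks extended by 500 bp, 3162 distal summits were marked in place of 1861. The log2 difference in median β-catenin fold (marked minus unmarked, -0.064) was then 0.066, and without one replicate it ranged from -0.0086 to 0.075, so its direction depended on the setting. The median distance to the H3K27ac summit (161 bp) was 163 bp with a TSS limit of 2.5 kb, 164 bp with a −log10 q of at least 5, 229 bp with extended peaks and 158.5 to 160 bp without one replicate. The C59 minus control share of distal summits in H3K27ac peaks (0.561 points) was -0.367 points for summits with a core and ranged from -0.527 to 1.65 points without one library. With the replicate number as a block it was 0.561 points (exact permutation test, p = 1), and the pairs gave 2.15 and -1.03 points. Same-numbered libraries deviated in opposite directions, which with 2 pairs does not show whether the numbers pair them. Leaving out summits in all 8 lists gave a difference in C59 β-catenin peaks of -0.243 points, but this removal depends on the outcome itself, as given above. Over all summits the difference ranged from 1.25 to 1.43 points without one replicate.

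The difference in H3K27ac after C59 between sites with and without a core (-8.65 points) kept its direction under all 17 alternatives and did not pass in 7. These were classes 1, 3 and 4 of 4 of H3K27ac fold (-6.01, -7.27 and -0.987 points), the same classes of β-catenin fold (-3.99, -8.88 and -5.73 points) and GC content below the median (-5.64 points). The difference between summits marked in controls alone and in C59 alone (8.84 points) was 5.22 points between control library 2 and C59 library 1, the lowest of the 4 pairs of libraries. The strata hold fewer sites than the whole set. The shares of TCF/LEF cores against unmarked summits (18 alternatives) and against windows 2 kb away (11), and the share of regions called after C59 against regions without β-catenin (15), kept their direction and their side of the threshold.

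Peak lists give a call and a fold, not coverage at every site, so gradual changes below or above the calling threshold were not measured. Sites near each other are not independent, and with 2 libraries in each group the exact permutation test over libraries cannot pass the threshold.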
